A study of Homo sapiens with 60 samples.

Results

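NEAT1 and MALAT1 are the nuclear long noncoding RNAs that lie next to each other on chromosome 11, and NONO, SFPQ and PSPC1 encode the core proteins of the paraspeckle, the nuclear body built on NEAT1. These 5 genes were taken by symbol from the 60675 gene identifiers of the deposited count table, and all 5 were among the 18601 genes that passed the filter on low counts. NEAT1 and MALAT1 were chosen by their measured CPM, which rise with several extracts against vehicle in these libraries, so their values are given as a description with no test. NONO, SFPQ and PSPC1 were listed as a check on them and were tested.

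The cells were SW1783, an established human astrocytoma line, treated for 24 h with ethanol extracts of herbs or of multi-herb formulas and sequenced as messenger RNA libraries, 60 in all. Single herbs were Polygalae Radix (30, 6 and 1.2 µg/mL as high, medium and low dose, 2 libraries each), Aucklandiae Radix (160, 32 and 6.4 µg/mL, 2 each), and at 500, 100 and 20 µg/mL Menthae Herba (3 each) and Saposhnikoviae Radix (3 each). Formulas, all at 500, 100 and 20 µg/mL, were Guibi-tang (3 libraries each), Saengmaek-san (3 each), Soyo-san (2 each) and Okbyeongpung-san, whose 1 library per dose is given as values only. Polygalae Radix and Aucklandiae Radix are constituents of Guibi-tang, and Menthae Herba is a constituent of Soyo-san. The 3 vehicle libraries came from cells given DMSO (0.1% in the sample records, 2% in the series text). All groups share the line, the medium and the harvest time, and a single tumour line limits what they model. The labels do not say whether replicates were separate cultures, so p-values rest on the spread between libraries within groups, which may be technical. That spread was estimated for each gene over all 25 groups together. An SE or interval below is therefore not the spread of the compared libraries alone.

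NEAT1 is transcribed as a short polyadenylated RNA and as a long RNA that runs on past that site and scaffolds the paraspeckle. NONO, SFPQ and PSPC1 belong to the same family of RNA-binding proteins, and NONO and SFPQ hold the long form and allow the body to assemble. Paraspeckles are known to grow when cells are stressed, and they retain proteins and some RNAs in the nucleus. MALAT1 gathers in nuclear speckles, bodies rich in splicing factors, and is among the most abundant polymerase II transcripts of many cells.

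The ends of these RNAs are shown because they bear on what a messenger RNA library captures. MALAT1 and long NEAT1 are not given a poly(A) tail: RNase P cuts them before a transfer RNA-like structure, and U-rich runs fold back on an A-rich tract of the genome's own sequence to cap the end as a triple helix. In these last 100 bases, read from GENCODE 29 transcripts (GRCh38, plus strand), capitals mark the U-rich runs and the A-rich tract.
NEAT1 long transcript end, chr11:65445441-65445540: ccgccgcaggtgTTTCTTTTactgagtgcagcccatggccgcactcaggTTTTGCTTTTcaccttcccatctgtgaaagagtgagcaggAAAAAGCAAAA
MALAT1 mature end, chr11:65506017-65506116: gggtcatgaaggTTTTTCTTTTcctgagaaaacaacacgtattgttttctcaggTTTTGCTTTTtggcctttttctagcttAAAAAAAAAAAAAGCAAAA
The short NEAT1 transcript instead ends after a polyadenylation signal, in capitals in its last 60 bases.
NEAT1 short transcript end, chr11:65426454-65426513: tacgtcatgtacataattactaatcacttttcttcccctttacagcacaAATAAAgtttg
The 57-base tRNA-like RNA that follows mature MALAT1 is cut off and exported to the cytoplasm.
MALAT1 tRNA-like RNA, chr11:65506117-65506173: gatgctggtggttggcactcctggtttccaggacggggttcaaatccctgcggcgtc
Both tRNA-like genes of this locus were at 0 counts in all 60 libraries. The table gives 1 count per gene, so short and long NEAT1 (the longest annotated transcript has 22743 bases) are not told apart in any value below. A gene annotated antisense to MALAT1 (ENSG00000270117) was also at 0 in all 60 libraries, and the strand setting of the counting is not given in the sources used here.

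In the GENCODE 29 annotation NEAT1 occupies chr11:65422774-65445540 and MALAT1 chr11:65497688-65506516, both on the plus strand and both noncoding over their whole length. NONO lies on chromosome X (71283192 to 71301168, plus strand), SFPQ on chromosome 1 (35176378 to 35193148, minus strand) and PSPC1 on chromosome 13 (19674752 to 19783019, minus strand).

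Total expected counts ranged from 19031094 to 37686975 per library. Levels are depth-scaled counts (CPM, with library sizes adjusted by TMM), relative to all RNA of a library, so fewer cells with a gene's RNA, less of it per cell and more of other RNA cannot be told apart. Of 12 astrocyte and glioma markers 6 averaged above 1 CPM in the vehicle libraries, led by VIM and CD44, whereas GFAP, S100B, AQP4, ALDH1L1, SOX2 and OLIG2 stayed under 0.4 CPM in every library. Summed, this list ran from 8201 to 8344 CPM with vehicle and from 1532 to 9608 CPM in treated libraries. In 10 treated libraries long transcripts were underrepresented: regressing the log2 departure of 10020 genes from vehicle on log2 coding-transcript length gave a slope below -0.15 (from -0.448 to -0.155), against -0.031 to 0.027 with vehicle. These were Saposhnikoviae Radix high 2, low 2 and low 3, Menthae Herba high 3, Saengmaek-san high 1, medium 1 and low 1, Guibi-tang medium 2 and low 2, and Okbyeongpung-san high 1, and they are called length-tilted here. The vehicle libraries carry a library-name set of their own, so in comparisons with vehicle the set and the treatment cannot be told apart, whereas high and low doses of an extract share a set.

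NEAT1 reached its highest levels in cells given high-dose Guibi-tang or Polygalae Radix. It stood at 396, 362 and 363 CPM in the vehicle libraries, a mean of 373 ± 19.1 CPM (SD, n = 3). With high-dose Guibi-tang it was at 1126, 1340 and 1347 CPM (1271 ± 126, n = 3), and with high-dose Polygalae Radix at 1202 and 1068 CPM (1135 ± 94.6, n = 2). Relative to vehicle these were log2 fold changes of 1.77 and 1.60, and every library of both groups lay far above all vehicle libraries. High-dose Soyo-san followed at 926 and 798 CPM (log2 fold change 1.21), and high-dose Menthae Herba at 880, 784 and 688 CPM (1.07). The single Okbyeongpung-san high library held 773 CPM.

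At the other high doses NEAT1 was closer to vehicle. Aucklandiae Radix gave 565 and 654 CPM (log2 fold change 0.71) and Saengmaek-san 519, 460 and 537 CPM (0.44). The lowest treated group was high-dose Saposhnikoviae Radix at 473, 519 and 381 CPM (0.29), and its 381 CPM is the only treated value inside the vehicle range. Thus 56 of the 57 treated libraries held more NEAT1 than any vehicle library; 0.978% of all tested genes did so in at least 56, and since NEAT1 was chosen for rising nothing is read from this.

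**Figure D1:**
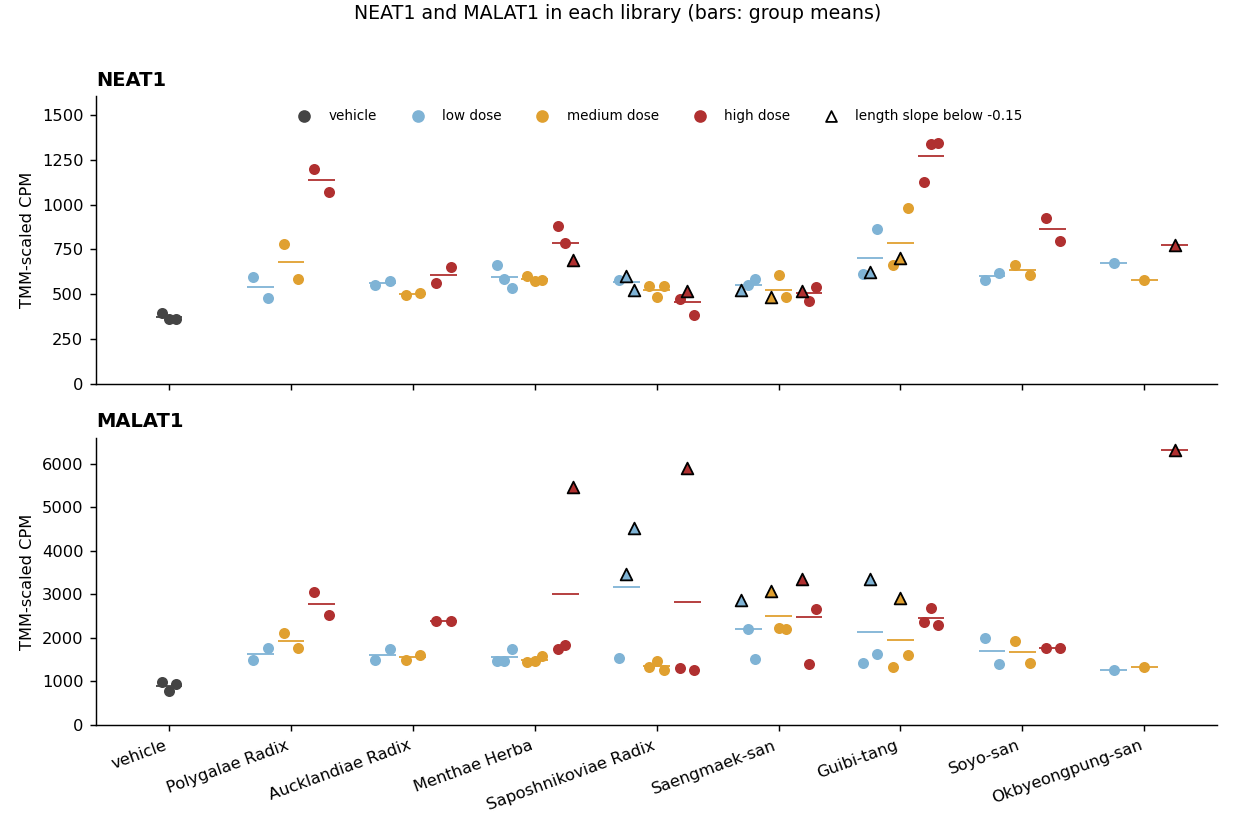
NEAT1 and MALAT1 levels (vertical axes, TMM-scaled CPM from 0) in each of 60 libraries by extract; points are libraries, bars group means, colours doses and triangles length-tilted libraries. NEAT1 reaches 1068 to 1347 CPM with high-dose Polygalae Radix and Guibi-tang, whereas the highest MALAT1 values are triangles.

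NEAT1 was above vehicle at the low doses too, where its 19 libraries ran from 481 to 864 CPM with a median of 583 CPM. Vehicle libraries have a name set of their own, so set and treatment cannot be told apart in this step. Their mitochondrial share of counts was 10.1 to 10.3%. In treated libraries the median was 7.90% if tilted (5.82 to 11.6%) and 7.51% otherwise (4.09 to 19.2%). The 19 medium-dose libraries ran from 481 to 983 CPM with a median of 578 CPM, so the lower doses as a whole lay at the same level. Only with some extracts did the high dose depart from it. From low to high dose NEAT1 went from 595 and 481 to 1202 and 1068 CPM with Polygalae Radix, a log2 difference of 1.08. With Guibi-tang it went from 612, 622 and 864 to 1126, 1340 and 1347 CPM (0.86), with Soyo-san from 580 and 617 to 926 and 798 CPM (0.53), and with Menthae Herba from 663, 587 and 534 to 880, 784 and 688 CPM (0.40). In these 4 extracts all high-dose libraries lay above all low-dose libraries. Aucklandiae Radix (0.11) and Saengmaek-san (-0.13) overlapped between doses. Saposhnikoviae Radix ran the other way, from 577, 600 and 523 CPM at the low dose to lower values in every high-dose library (-0.31).

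Ranked by group mean, Guibi-tang high and Polygalae Radix high came first and overlapped in their libraries. Soyo-san high (862 ± 90.6 CPM, n = 2), Menthae Herba high (784 ± 95.9 CPM, n = 3) and Guibi-tang medium (665, 701 and 983 CPM) came next, each overlapping its neighbour. From Guibi-tang low (699 ± 143 CPM, n = 3) down to Aucklandiae Radix medium (501 ± 8.95 CPM, n = 2) the means fell in small steps and most neighbouring groups overlapped in their libraries. Saposhnikoviae Radix high and vehicle, which overlapped, came last of the 25 groups.

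MALAT1 was above vehicle in all 57 treated libraries, at every dose of every extract. It stood at 979.6, 789.6 and 953 CPM with vehicle (907 ± 103 CPM, n = 3), and the lowest treated library, a high-dose Saposhnikoviae Radix library, held 1267 CPM. Of all tested genes 0.452% were above vehicle in every treated library, and here too the choice of MALAT1 for its rise fixes the outcome. Log2 fold changes at the high doses were 1.73 for Menthae Herba, 1.64 for Saposhnikoviae Radix, 1.62 for Polygalae Radix, 1.45 for Saengmaek-san, 1.43 for Guibi-tang, 1.40 for Aucklandiae Radix and 0.97 for Soyo-san. Several of these means rest on single libraries.

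The highest MALAT1 levels were in length-tilted libraries. Okbyeongpung-san high held 6314 CPM, Saposhnikoviae Radix high 2 held 5900 CPM, Menthae Herba high 3 held 5457 CPM and Saposhnikoviae Radix low 3 held 4521 CPM, the 4 libraries of the steepest slopes. Over the 10 tilted libraries MALAT1 ran from 2879 to 6314 CPM with a median of 3418 CPM, and over the other 47 treated libraries from 1267 to 3051 CPM with a median of 1606 CPM. NEAT1 showed no such step, with medians of 562 and 587 CPM in the same libraries. The ratio of MALAT1 to NEAT1 counts, which is not per length and serves only to compare libraries, was 2.18 to 2.63 with vehicle, 4.15 to 11.4 in tilted libraries and 1.63 to 4.96 in the other treated ones.

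As a description over the 60 libraries, which share extracts and name sets, log2 MALAT1 and the slope gave Pearson r = -0.726 and Spearman rho = -0.574. The relation rests on the tilted libraries, with r = -0.950 among those 10 and -0.033 among the other 50; dropping the 2 libraries of most extreme slope left r = -0.612. Within library-name sets r was -0.976 (Menthae Herba and Saposhnikoviae Radix, n = 18), -0.980 (Soyo-san and Okbyeongpung-san, n = 9) and -0.517 (Saengmaek-san and Guibi-tang, n = 18), but 0.604 for Polygalae Radix and Aucklandiae Radix (n = 12), a set with no tilted library. For NEAT1 r was 0.236 and rho 0.151, with 0.425 among the 50 untilted libraries and -0.151 among the 10 tilted. Within the sets NEAT1 gave 0.840, -0.077, 0.782 and -0.292 (n = 12, 18, 18 and 9), and without the 2 farthest libraries 0.307. The sets with r of 0.840 and 0.782 hold high-dose Polygalae Radix and Guibi-tang. These 5 libraries, highest in NEAT1, also stand apart in slope (0.0648 to 0.0920, against at most 0.0270 in the other libraries) and in TMM factor (1.17 to 1.32, against at most 1.05). With the slope as a covariate NEAT1 was 1.75 (Guibi-tang) and 1.59 (Polygalae Radix) on the log2 scale against vehicle, beside 1.77 and 1.60 without it. That fit keeps a mean per group, so its slope term comes from differences between libraries of the same group. It could not test the step in slope between these 5 libraries and the others.

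**Figure D2:**
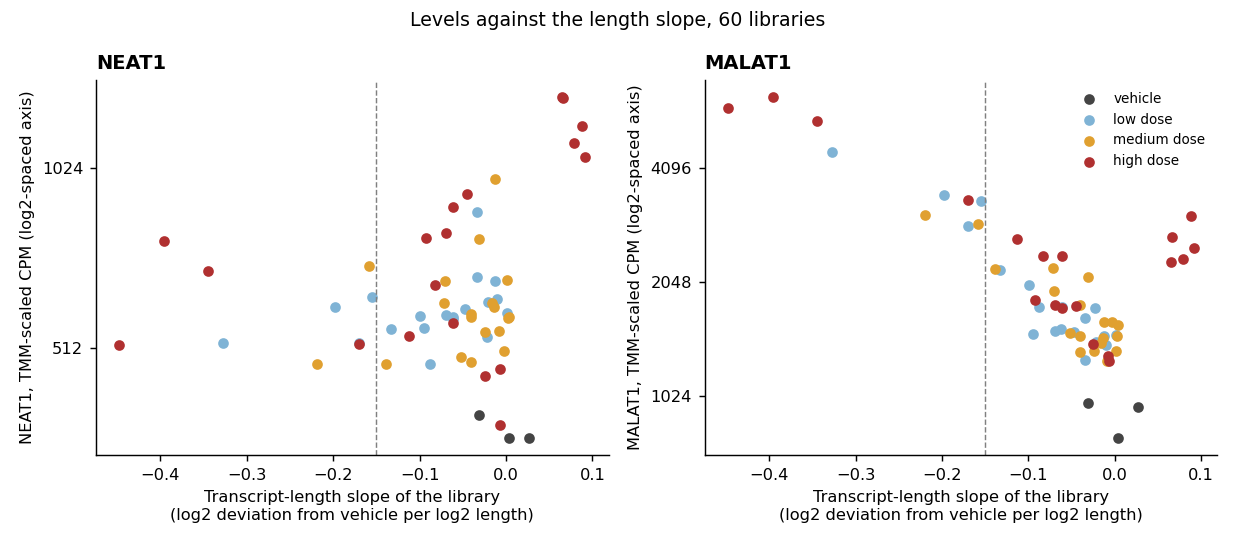
NEAT1 and MALAT1 (vertical axes, TMM-scaled CPM on a log2-spaced axis) against the transcript-length slope of each library, coloured by dose, with a dashed line at -0.15. MALAT1 climbs to 6314 CPM left of the line and NEAT1 does not.

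Without the tilted libraries MALAT1 still lay above vehicle with each extract, but some values shrank. The log2 fold change at the high dose was then 0.99 for Menthae Herba (1748 and 1835 CPM) and 0.50 for Saposhnikoviae Radix (1302 and 1267 CPM). In each of these a single library, replicate 3 and replicate 2 respectively, accounts for the drop. Polygalae Radix high (3051 and 2520 CPM), Aucklandiae Radix high (2391 and 2398 CPM) and Guibi-tang high (2357, 2688 and 2306 CPM) hold no tilted library.

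Between doses MALAT1 differed less than from vehicle. All high-dose libraries lay above all low-dose libraries for Polygalae Radix (from 1503 and 1761 CPM, log2 difference 0.77) and Aucklandiae Radix (from 1485 and 1753 CPM, 0.56). The other 5 extracts overlapped: Menthae Herba 0.94, Guibi-tang 0.20, Saengmaek-san 0.17, Soyo-san 0.06 and Saposhnikoviae Radix -0.17. Leaving out a tilted library moved several of these by over 1.5 times, Menthae Herba to 0.20 without high replicate 3, Guibi-tang to 0.68 without low replicate 2 and Saposhnikoviae Radix to -1.32 without high replicate 2. Without Soyo-san low replicate 1, which is not tilted, its value was 0.34. The sign itself turned on leaving out some library for Guibi-tang (down to -0.01), Saengmaek-san (-0.12), Soyo-san (-0.18) and Saposhnikoviae Radix (up to 0.18). Medium-dose MALAT1 ran from 1268 to 3071 CPM with a median of 1578 CPM, and low-dose MALAT1 from 1269 to 4521 CPM with a median of 1641 CPM.

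NONO, which binds long NEAT1 and is needed for paraspeckles, fell with high-dose Guibi-tang and Polygalae Radix, the same 2 groups in which NEAT1 was highest. Vehicle libraries held 795, 807 and 807 CPM (803 ± 6.70, n = 3). Guibi-tang high held 225, 224 and 252 CPM, a log2 fold change of -1.78 ± 0.09 (SE; adjusted p = 2.21e-20), and Polygalae Radix high held 312 and 258 CPM (-1.49 ± 0.10; adjusted p = 3.79e-16). All 5 libraries lay below every vehicle library. These 2 comparisons called 52.2% and 50.0% of all tested genes, so a call alone is common there.

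Smaller falls of NONO were called at 2 other high doses. Aucklandiae Radix high held 540 and 489 CPM (-0.64 ± 0.09; adjusted p = 7.84e-07; 34.2% of genes called), and Saengmaek-san high held 667, 669 and 674 CPM (-0.26 ± 0.08; adjusted p = 0.0241; 18.3% of genes called). The Saengmaek-san call was lost with no filter on low counts (adjusted p = 0.208) and on leaving out any of 5 of the 6 libraries (adjusted p up to 0.077). Soyo-san high was at 650 and 643 CPM (-0.31 ± 0.09; adjusted p = 0.057; 3.07% called), a comparison that passed under DESeq2 (adjusted p = 0.00697). Menthae Herba high (-0.10, 95% interval -0.27 to 0.07; adjusted p = 0.399; 24.0% called) and Saposhnikoviae Radix high (-0.17, -0.34 to -0.00; adjusted p = 0.151; 13.8% called) did not pass. Without replicate 1 or replicate 3 of Saposhnikoviae Radix high the latter passed (adjusted p = 0.0234 and 0.0395). The libraries of that group held 801, 555 and 782 CPM. The 555 CPM is replicate 2, which is length-tilted (slope -0.448) and stayed in both refits.

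**Figure D3:**
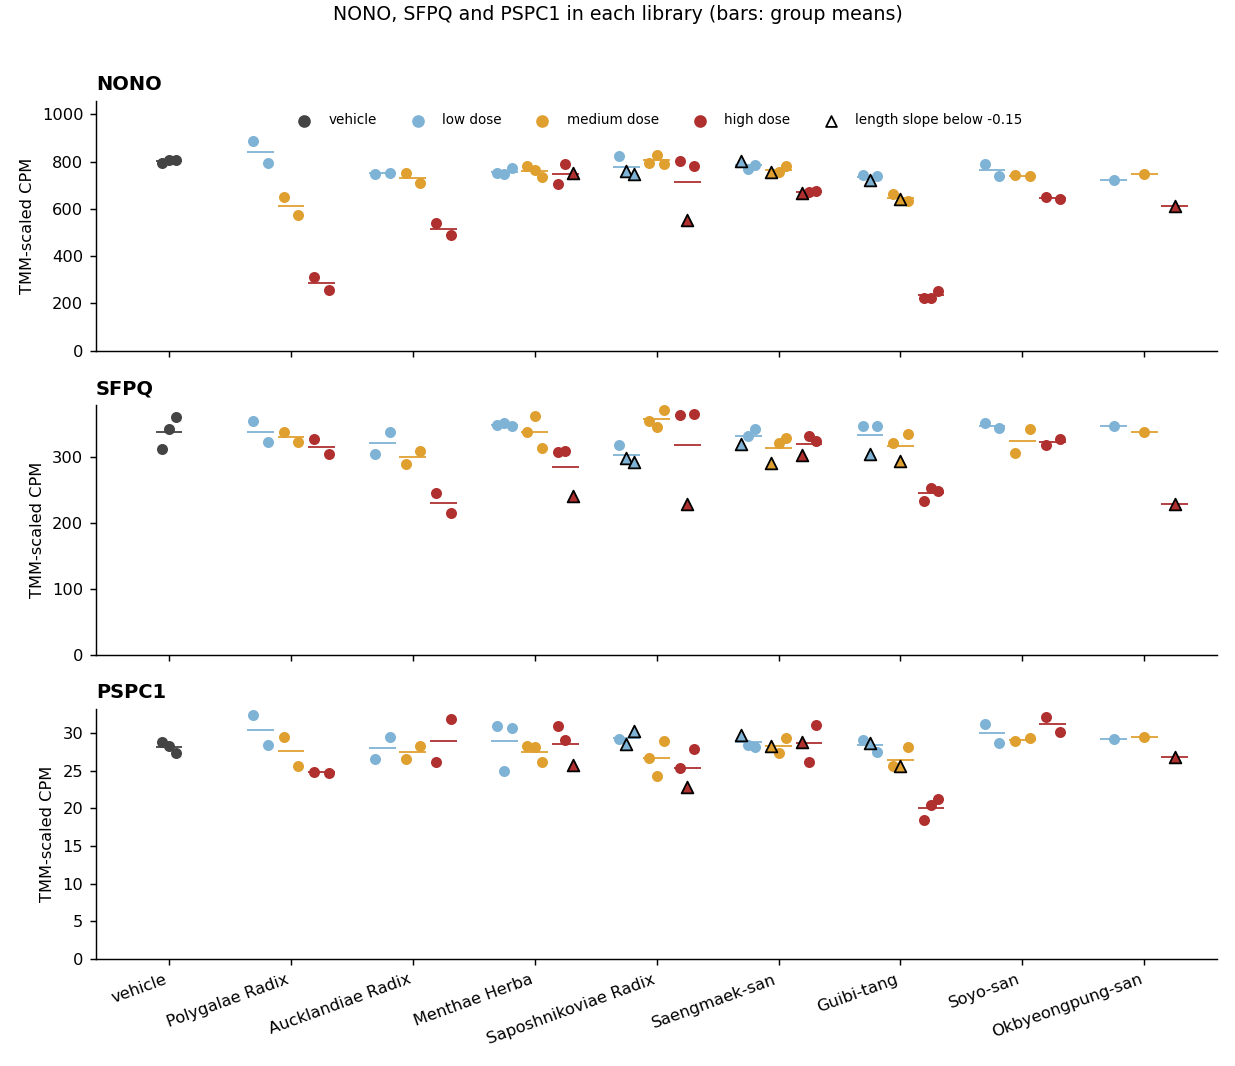
NONO, SFPQ and PSPC1 levels (vertical axes, TMM-scaled CPM from 0) in each library by extract, with points, bars, colours and triangles as for the long noncoding RNAs. NONO drops to 224 to 312 CPM with high-dose Polygalae Radix and Guibi-tang, and SFPQ and PSPC1 move less.

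At the medium dose NONO was lower with Polygalae Radix (648 and 574 CPM, log2 fold change -0.39, adjusted p = 0.00749, 4.77% of genes called) and with Guibi-tang (661, 640 and 633 CPM, -0.32, adjusted p = 0.0132, 7.21% called). Both calls were lost with no filter on low counts (adjusted p = 0.126 and 0.202) and on leaving out certain single libraries, such as Polygalae Radix medium replicate 3 (adjusted p = 0.253), vehicle replicate 3 (0.0531 for Guibi-tang) and Guibi-tang medium replicate 2 (0.0591). No low dose passed the test for NONO, with log2 fold changes between -0.13 and 0.06 over 7 extracts. The share of all genes called at the low dose was 0.866% (Aucklandiae Radix), 2.80% (Guibi-tang), 0.538% (Menthae Herba), 1.38% (Polygalae Radix), 4.16% (Saengmaek-san), 17.9% (Saposhnikoviae Radix) and 1.74% (Soyo-san). The 5 remaining medium-dose comparisons, none of which passed for NONO, called 4.53% (Aucklandiae Radix), 1.09% (Menthae Herba), 4.47% (Saengmaek-san), 1.20% (Saposhnikoviae Radix) and 0.382% (Soyo-san). Of the 57 treated libraries 52 held less NONO than any vehicle library, and 4.41% of tested genes were below vehicle in at least 52.

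Within an extract the same order held for high against low dose, a comparison inside 1 library-name set. NONO went from 742, 720 and 739 CPM to 225, 224 and 252 CPM with Guibi-tang (-1.65 ± 0.09; adjusted p = 2.1e-19; 53.2% of genes called). It went from 885 and 794 to 312 and 258 CPM with Polygalae Radix (-1.56 ± 0.10; adjusted p = 8.37e-16; 47.7% called) and from 749 and 749 to 540 and 489 CPM with Aucklandiae Radix (-0.54 ± 0.10; adjusted p = 7.12e-05; 25.0% called). The other 4 extracts ran from -0.24 to -0.02 and did not pass, although Saengmaek-san did with the length slope as a covariate (-0.24, adjusted p = 0.00595). Of all genes 16.5% (Menthae Herba), 6.04% (Saengmaek-san), 0.398% (Saposhnikoviae Radix) and 0.538% (Soyo-san) were called there.

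SFPQ, the partner of NONO in the same heterodimers, changed in fewer groups. With vehicle it stood at 311, 342 and 360 CPM. Aucklandiae Radix high held 244 and 214 CPM (-0.56 ± 0.12; adjusted p = 0.000285) and Guibi-tang high 234, 253 and 248 CPM (-0.46 ± 0.11; adjusted p = 0.000311), both below all vehicle libraries. Polygalae Radix high, where NONO was down to 285 ± 38.0 CPM (n = 2), kept SFPQ at 326 and 304 CPM (-0.10, 95% interval -0.34 to 0.14; adjusted p = 0.508), though the fit with the length slope as a covariate called it lower (-0.21, adjusted p = 0.00308). High against low dose gave -0.48 for Aucklandiae Radix (adjusted p = 0.00464) and -0.44 for Guibi-tang (adjusted p = 0.000581). The Aucklandiae Radix call was lost without high replicate 3 or without low replicate 3 (adjusted p = 0.106 and 0.086). Menthae Herba high lay below all vehicle libraries without passing (307, 308 and 240 CPM; -0.24; adjusted p = 0.0887), and its difference from the low dose (-0.29, adjusted p = 0.0536) passed only in some refits, such as DESeq2 (adjusted p = 0.0339). Saposhnikoviae Radix passed against its low dose without high replicate 2 (0.26, adjusted p = 0.0266). Menthae Herba high 3, at 240 CPM, is length-tilted, as are Saposhnikoviae Radix high 2 and Okbyeongpung-san high, each at 228 CPM.

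PSPC1, the family member that is not needed for the body to form, fell with high-dose Guibi-tang. It stood at 28.8, 28.4 and 27.4 CPM with vehicle and at 18.5, 20.5 and 21.2 CPM with Guibi-tang high (-0.49 ± 0.09; adjusted p = 1.22e-05). Against its own low dose the value was -0.50 ± 0.09 (adjusted p = 7.45e-06). Polygalae Radix high held 24.9 and 24.7 CPM, which passed against its low dose (32.5 and 28.4 CPM; -0.30 ± 0.11; adjusted p = 0.0216) but not against vehicle (-0.18; adjusted p = 0.12), where the fit with the length slope as a covariate called it lower (-0.21, adjusted p = 0.0425). The call against the low dose was lost in 3 of the 4 refits that each left out 1 library of the compared groups (adjusted p up to 0.23). The other high doses gave log2 fold changes from -0.15 to 0.15 against vehicle and did not pass. No medium or low dose passed the test for SFPQ or PSPC1, where log2 fold changes ran from -0.18 to 0.11.

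The 3 tests added after the data were seen compared the change from low to high dose between extracts that share a library-name set, each over its own doses. Of all tested genes 36.5% were called for Guibi-tang minus Saengmaek-san, 35.3% for Polygalae Radix minus Aucklandiae Radix and 12.0% for Menthae Herba minus Saposhnikoviae Radix. NONO fell further with Guibi-tang than with Saengmaek-san (difference of log2 changes -1.42 ± 0.12; adjusted p = 9.43e-13) and further with Polygalae Radix than with Aucklandiae Radix (-1.02 ± 0.14; adjusted p = 3.41e-07). For Polygalae Radix minus Aucklandiae Radix neither SFPQ (0.38, 95% interval 0.01 to 0.75; adjusted p = 0.105) nor PSPC1 (-0.35, -0.66 to -0.04; adjusted p = 0.0734) passed. Without the tilted libraries, none of which is in these groups, both did (adjusted p = 0.00283 and 0.0406), as did PSPC1 with the slope as a covariate (adjusted p = 0.019). PSPC1 (-0.50 ± 0.12; adjusted p = 0.00142) and SFPQ (-0.39 ± 0.15; adjusted p = 0.0395) also fell further with Guibi-tang than with Saengmaek-san. The SFPQ difference was lost with no filter on low counts (adjusted p = 0.151) and in 9 of 12 refits that left out a library (adjusted p up to 0.0909). Between Menthae Herba and Saposhnikoviae Radix no difference of the 3 genes passed (NONO 0.11, 95% interval -0.13 to 0.34; adjusted p = 0.611), although SFPQ did without Saposhnikoviae Radix high replicate 2 (-0.55, adjusted p = 0.000295).

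Among 32 other genes of paraspeckle proteins, falls outnumbered rises at the 2 high doses where NONO was lowest. With Guibi-tang against vehicle 16 fell, 4 rose and 12 did not pass (median log2 fold change -0.294, against 0.020 over all genes), and with Polygalae Radix 14 fell, 6 rose and 12 did not pass (-0.233 against 0.035). The share of all genes called lower was 27.7% and 26.3%, and higher 24.5% and 23.6%. HNRNPK, an RNA-binding protein involved in making the long form of NEAT1, went from 519 ± 15.7 to 216 ± 4.33 CPM with Guibi-tang (n = 3 each; -1.27, adjusted p = 3.34e-10) and to 200.2 ± 25.6 CPM with Polygalae Radix (n = 2; -1.38, adjusted p = 1.72e-09). TAF15, an RNA-binding protein of the same family as EWSR1, fell with Guibi-tang (227 to 98.03 CPM; -1.21), as did HNRNPUL1 (534 to 215 CPM; -1.31). FAM98A (97.0 to 41.2 CPM; -1.24) and SMARCA4, a chromatin remodelling ATPase (159 to 71.8 CPM; -1.15), fell with Polygalae Radix. The 3 largest rises in both groups were SS18L1 (26.3 to 53.2 CPM with Guibi-tang, 1.02, and to 45.5 CPM with Polygalae Radix, 0.79), ZC3H6 (0.63 and 0.51) and RBM7 (0.35 and 0.66).

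Against the low dose the list moved the same way, with 18 lower and 2 higher for Guibi-tang (median -0.415; 28.6% and 24.6% of all genes) and 17 lower and 4 higher for Polygalae Radix (median -0.400; 26.2% and 21.6%). Including NONO, SFPQ and PSPC1, 18 genes were called lower in both of these comparisons, which share no library. That is 94.7% of the 19 called with Polygalae Radix and 85.7% of the 21 called with Guibi-tang, beside 84.9% and 77.7% for all genes called lower. Polygalae Radix is a constituent of Guibi-tang, so the 2 treatments are not independent. RBM3, a cold-inducible RNA-binding protein, was among the largest falls in both (-1.21 and -1.30). HNRNPA1, HNRNPK and RBMX have pseudogenes or near copies that could share their reads, so their values are less certain.

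**Figure D4:**
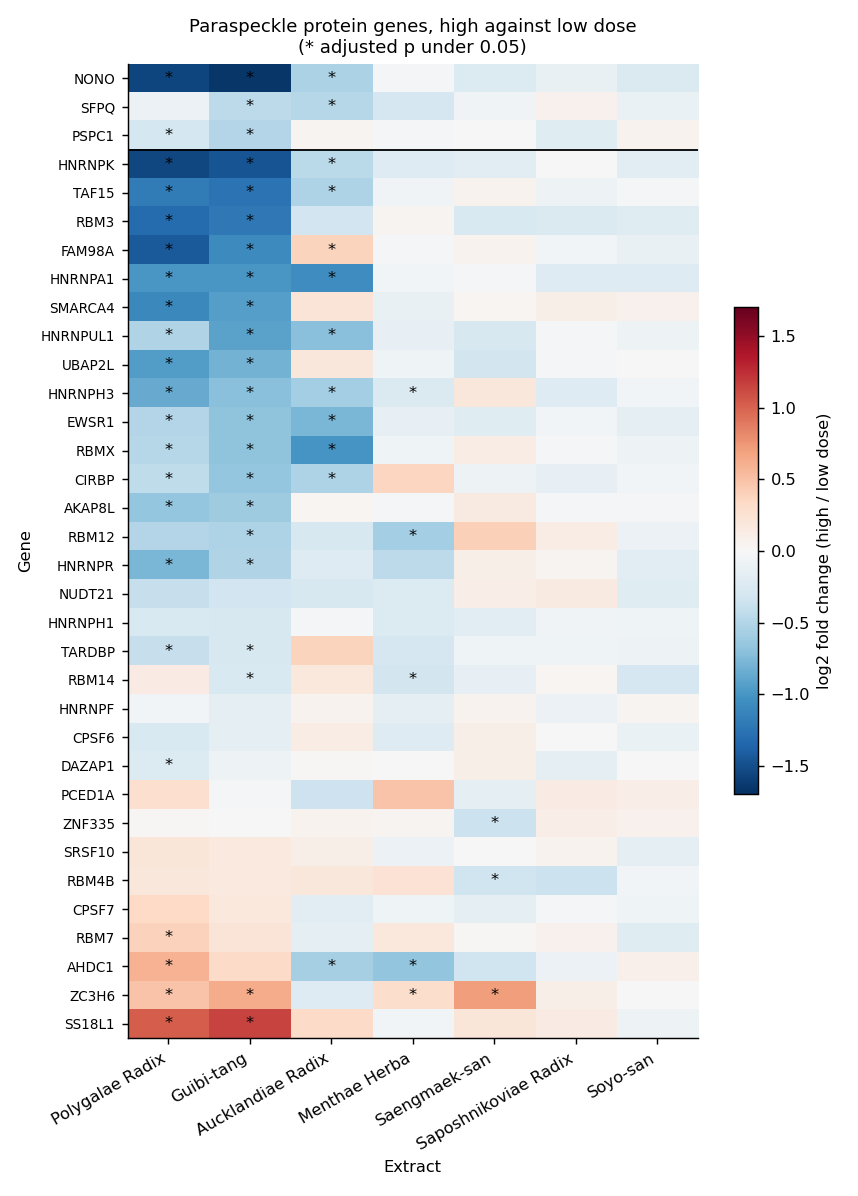
Log2 fold change of high against low dose (colour) for NONO, SFPQ and PSPC1 (above the line) and other paraspeckle protein genes, by extract; stars mark adjusted p under 0.05. Polygalae Radix and Guibi-tang share a block of lower genes from HNRNPK to AKAP8L, and Saposhnikoviae Radix and Soyo-san have no star.

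With the other extracts the list moved less. Aucklandiae Radix against vehicle gave 3 higher and 7 lower (median -0.053; 16.5% and 17.6% of all genes), with TARDBP (0.48) and FAM98A (0.47) up and AHDC1 (-1.28), HNRNPUL1 (-1.04) and HNRNPA1 (-0.84) down. Against its low dose it gave 1 higher and 10 lower (10.8% and 14.2% of all genes), led by HNRNPA1 (-1.05), RBMX (-1.01) and EWSR1 (-0.78). Against vehicle Menthae Herba gave 4 higher, with the cold-inducible CIRBP (70.8 to 129 CPM; 0.86) and RBM3 (241 to 365 CPM; 0.60) first, and 4 lower (11.2% and 12.8%). Saengmaek-san gave 8 higher and 6 lower (9.05% and 9.25%), and Saposhnikoviae Radix 3 higher (9.47%), among them CIRBP (0.56), and 3 lower (4.33%). Soyo-san gave 0 higher and 3 lower (1.72% and 1.35%), AHDC1 (-0.65), RBM14 (-0.59) and HNRNPUL1 (-0.41). The CIRBP call with Saposhnikoviae Radix and those of AHDC1 and HNRNPUL1 with Soyo-san were each lost on leaving out some single library (adjusted p up to 0.22, 0.363 and 0.239). Counted with NONO, SFPQ and PSPC1, the calls of 4 extracts moved with the length slope: as a covariate it raised them from 15 to 23 (Saengmaek-san), from 8 to 15 (Menthae Herba), from 6 to 12 (Saposhnikoviae Radix) and from 3 to 7 (Soyo-san). Aucklandiae Radix, which holds no tilted library, went from 12 to 19 without the tilted libraries of other groups and to 19 when fitted with vehicle alone. Leaving out 1 library took Saengmaek-san to 9, Saposhnikoviae Radix to between 2 and 11 and Soyo-san to 1. These counts were against vehicle. High against low dose, the 32 genes gave 1 higher and 5 lower with Menthae Herba (16.5% of all genes called). Saengmaek-san gave 1 and 2 (6.04%), and Saposhnikoviae Radix (0.398%) and Soyo-san (0.538%) neither. The 1 rise with Menthae Herba was ZC3H6 (0.30), so CIRBP and RBM3 were not called higher there.

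Genes of nuclear speckles, where MALAT1 resides, moved both ways. With Guibi-tang against vehicle 8 of 20 rose and 8 fell (median -0.137, against 0.020 over all genes), and with Polygalae Radix 9 rose and 6 fell (0.098 against 0.035). Beside them 24.5% and 23.6% of all genes rose and 27.7% and 26.3% fell. CLK1, a kinase of SR splicing factors, rose from 11.9 to 28.4 CPM with Guibi-tang (1.26; adjusted p = 3.43e-06) and to 33.6 CPM with Polygalae Radix (1.50; adjusted p = 7.07e-07), and DYRK1A, a kinase that disperses speckles, rose by 0.79 and 1.23. U2AF2, which recognises the 3′ splice site, fell (-1.17 and -0.94), as did the speckle scaffold SRRM2 (-0.92 and -0.74), with Polygalae Radix a call lost on leaving out some single library (adjusted p up to 0.167). SRSF5, an SR protein gene, rose against vehicle with each of the other 5 extracts, 0.71 with Aucklandiae Radix, 0.73 with Menthae Herba, 0.59 with Saengmaek-san, 0.61 with Saposhnikoviae Radix and 0.51 with Soyo-san. In those 5 extracts 3, 4, 3, 4 and 1 of the 20 rose, beside 16.5%, 11.2%, 9.05%, 9.47% and 1.72% of all genes, and 2, 2, 2, 0 and 0 fell, beside 17.6%, 12.8%, 9.25%, 4.33% and 1.35%. Against their own low doses 0, 1, 0, 0 and 0 of the 20 rose and 1, 1, 1, 0 and 0 fell. Of all genes 25.0%, 16.5%, 6.04%, 0.398% and 0.538% were called there. The 1 rise was CLK2 with Menthae Herba, so SRSF5 was not called higher against any of these low doses.

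Genes that make and trim the MALAT1 end, chiefly subunits of RNase P, were split as well. With Guibi-tang 4 of 13 rose and 4 fell (24.5% and 27.7% of all genes), and with Polygalae Radix 5 rose and 4 fell (23.6% and 26.3%). RPP25 rose from 2.10 to 9.31 and 10.8 CPM (2.14 and 2.37) and RPP14 from 33.8 to 69.6 and 76.1 CPM (1.04 and 1.17). POP1, the largest protein subunit of RNase P, fell from 31.2 to 10.8 and 11.2 CPM (-1.53 and -1.48), and ELAC2, the RNase Z that trims transfer RNA ends, from 102 to 49.3 and 43.6 CPM (-1.05 and -1.23). METTL16, which binds the MALAT1 triple helix, rose with Guibi-tang against its low dose (56.03 to 98.8 CPM; 0.82). With Aucklandiae Radix against vehicle 7 rose and 0 fell (16.5% and 17.6% of all genes), and with Saposhnikoviae Radix 5 rose and 0 fell (9.47% and 4.33%). RPP21 there (0.87, adjusted p = 0.0282) went to -0.0043 without high replicate 2, which is length-tilted, and RPP14 held 46.6 ± 14.4 CPM (n = 3). At the low dose of Saposhnikoviae Radix, where replicates 2 and 3 are tilted, 6 of 13 rose (17.9% of all genes called). At its medium dose, with no tilted library, 0 rose (1.20% called). At the high dose Menthae Herba gave 2 rises and 1 fall (11.2% and 12.8%), Saengmaek-san 1 rise (9.05%), and Soyo-san neither. High against low dose, 0 of the 13 passed with Aucklandiae Radix (25.0% of all genes called) or Saposhnikoviae Radix (0.398%). The same held for Saengmaek-san (6.04%) and Soyo-san (0.538%), and Menthae Herba gave 1 rise and 1 fall (16.5%).

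Of 10 nuclear RNA decay factors 4 fell and 2 rose with Guibi-tang (27.7% and 24.5% of all genes), and 5 fell and 2 rose with Polygalae Radix (26.3% and 23.6%). XRN2, the exonuclease that ends polymerase II transcription, went from 129 to 55.5 and 56.7 CPM (-1.22 and -1.19), and MTREX, the helicase that feeds the nuclear exosome, from 106 to 51.1 and 42.2 CPM (-1.05 and -1.32). ZCCHC8, a partner of MTREX, rose (0.48 and 0.81), as did the exosome subunit EXOSC3 (0.45 and 0.37), whose call with Polygalae Radix was lost without its high replicate 3 (adjusted p = 0.578). At the other high doses against vehicle Aucklandiae Radix gave 2 rises and 1 fall (16.5% and 17.6% of all genes). Menthae Herba gave 1 and 0 (11.2% and 12.8%) and Saengmaek-san 1 and 1 (9.05% and 9.25%). Saposhnikoviae Radix (9.47% and 4.33%) and Soyo-san (1.72% and 1.35%) gave neither. Against the low dose of Aucklandiae Radix 0 of the 10 passed (25.0% of all genes called). Against vehicle EXOSC3 rose with Aucklandiae Radix (0.63), and the calls of DIS3 (0.48) and ZCCHC8 (-0.35) were lost with no filter on low counts and on leaving out some single library (adjusted p up to 0.189 and 0.143).

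Of 12 other long noncoding RNAs 7 rose, 1 fell and 4 did not pass with Guibi-tang (median 0.398, against 0.020 over all genes). With Polygalae Radix 8 rose, 2 fell and 2 did not pass (0.520 against 0.035). Of all genes 24.5% and 23.6% rose and 27.7% and 26.3% fell. LINC-PINT went from 3.75 to 14.8 and 9.88 CPM (1.98, adjusted p = 9.99e-18, and 1.39, adjusted p = 3.37e-12), and NORAD, a cytoplasmic RNA that sequesters Pumilio proteins, from 383 to 754 and 935 CPM (0.98 and 1.29). MIAT fell with Guibi-tang (6.79 to 2.65 CPM; -1.35), with Polygalae Radix (-0.53), with Aucklandiae Radix (to 1.46 CPM; -2.21) and with Saengmaek-san (-0.97). The call with Polygalae Radix was lost on leaving out any of 3 libraries (adjusted p up to 0.0914). Aucklandiae Radix gave 2 rises, LINC-PINT (1.62) and JPX (0.32), and 4 falls (16.5% and 17.6% of all genes), and the JPX call was lost on leaving out some single library (adjusted p up to 0.131). HOTAIRM1 rose with Menthae Herba (0.71), Saengmaek-san (0.80) and Saposhnikoviae Radix (1.07), in the last with 28.3 ± 13.0 CPM (n = 3); the Menthae Herba call was lost without its high replicate 3 (adjusted p = 0.129). Against vehicle the list gave 1 rise with Menthae Herba, 2 with Saengmaek-san, 3 with Saposhnikoviae Radix and 1 with Soyo-san (11.2%, 9.05%, 9.47% and 1.72% of all genes), and 0, 1, 1 and 0 falls (12.8%, 9.25%, 4.33% and 1.35%).

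Of 9 factors known to act on NEAT1 transcription, 4 rose and 2 fell with Guibi-tang (median 0.032, against 0.020 over all genes) and also with Polygalae Radix (0.128 against 0.035). Of all genes 24.5% and 23.6% rose and 27.7% and 26.3% fell. ATF4, the effector of the integrated stress response, rose in 4 of 7 high doses against vehicle. It went from 151 ± 10.6 CPM (n = 3) to 223 ± 10.4 CPM with Guibi-tang (n = 3; 0.57), 315 ± 11.4 CPM with Polygalae Radix (n = 2; 1.06), 263 ± 0.57 CPM with Aucklandiae Radix (n = 2; 0.80) and 409.8 ± 50.9 CPM with Menthae Herba (n = 3; 1.44). NFE2L2, encoding NRF2, rose with Polygalae Radix (84.4 to 146 CPM; 0.79), and RUNX1 with Guibi-tang (147 to 223 CPM; 0.60), a call lost without vehicle replicate 1 (adjusted p = 0.0598). STAT3 fell in both (219 to 104 and 130 CPM; -1.08 and -0.76). Aucklandiae Radix gave 1 rise and 2 falls (16.5% and 17.6% of all genes) and Menthae Herba 1 and 1 (11.2% and 12.8%). Saengmaek-san (9.05% and 9.25%) and Saposhnikoviae Radix (9.47% and 4.33%) gave 0 and 1 each, and Soyo-san neither (1.72% and 1.35%).

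Over the 25 group means, which share libraries' depth and name sets, NEAT1 gave r = -0.789 with NONO and 0.449 with MALAT1. Over 24 groups without tilted libraries r with MALAT1 was 0.633. With SFPQ and PSPC1 NEAT1 gave r = -0.401 and -0.504. High-dose Guibi-tang and Polygalae Radix, highest in NEAT1, were the lowest groups in NONO (234 and 285 CPM), and no r without them was computed. Against vehicle 52.2% and 50.0% of all genes were called in these groups. The share of genes with such an r was not computed. Of 10252 candidate genes the 5 most like NEAT1 were RHOQ (r = 0.918), ZNF407-AS1 (0.852), RND3 (0.845), AMDHD2 (0.842) and EZH1 (0.836). RND3 went from 59.6 CPM with vehicle to 419 and 607 CPM with high-dose Polygalae Radix and Guibi-tang. ZNF407-AS1 is an antisense gene, whose reads may include those of its partner. The 5 most like MALAT1 were GEMIN7 (r = 0.933), CCDC107 (0.926), DIABLO (0.926), MED10 (0.922) and EOLA2 (0.915). Without the tilted libraries these 5 gave r between 0.783 and 0.875.

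RefSeq promoter windows (GRCh38.p14, 300 bases around a start) were at hand for MALAT1 (2 windows), NONO and PSPC1. They were searched on both strands for 8 motifs, and the MALAT1 window at the gene's start is shown for its SP1 boxes and NONO's for its CCAAT boxes, with matches in capitals.
MALAT1, chr11:65497488-65497787, plus strand: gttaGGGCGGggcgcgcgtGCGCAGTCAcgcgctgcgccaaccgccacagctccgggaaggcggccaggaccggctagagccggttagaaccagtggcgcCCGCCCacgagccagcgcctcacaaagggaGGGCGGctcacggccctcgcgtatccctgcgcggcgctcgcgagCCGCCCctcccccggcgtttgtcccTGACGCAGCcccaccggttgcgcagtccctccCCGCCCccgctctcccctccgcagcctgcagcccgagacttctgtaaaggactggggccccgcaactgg
NONO, chrX:71283385-71283684, plus strand: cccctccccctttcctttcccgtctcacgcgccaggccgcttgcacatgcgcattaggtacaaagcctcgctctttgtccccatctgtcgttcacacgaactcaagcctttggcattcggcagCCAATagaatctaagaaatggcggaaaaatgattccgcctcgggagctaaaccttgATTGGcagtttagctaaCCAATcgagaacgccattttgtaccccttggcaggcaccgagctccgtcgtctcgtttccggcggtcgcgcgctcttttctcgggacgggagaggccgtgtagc
The MALAT1 window held 5 matches to the SP1 box GGGCGG, found in 45% of 35116 promoter windows, and 2 to the antioxidant response core TGACNNNGC, found in 13.3%. The other MALAT1 window held TATAAA (11.5% of windows). NONO held 3 matches to CCAAT (34.6%) and PSPC1 held 1 to TGACNNNGC. ACGTG (21.4%), GAANNTTC (6.77%), TGACGTCA (1.85%) and TGATGNAA (3.62%), cores of the hypoxia, heat shock, cyclic AMP and ATF4 elements, were not in these 4 windows. A match describes the letters of a window and says nothing of binding in these cells.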

How the data were processed

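The authors deposited an expected count for every gene and library, derived from read pairs. Programs listed in the submitters' processing notes are RSEM 1.3.3, STAR 2.7.3a, FastQC 0.11.9 and Trim Galore 0.6.5, with the GRCh38 build; their roles are not listed. The annotation release and strand setting are not given in the sources used here. Libraries were assigned by name, 60 of 60. Counts were rounded, filtered (filterByExpr, minimum count 10, minimum total 15; the 3 Okbyeongpung-san libraries as 1 filter group), scaled by TMM and fitted with edgeR 4.0.16 in R 4.3.3 by quasi-likelihood, with 25 group means and 35 residual degrees of freedom. Tests were two-sided, adjusted by Benjamini-Hochberg over 18601 genes and an adjusted p below 0.05 counted as a call. Each SE belongs to a log2 fold change. The scripts were tested on simulated data. Depth (19031094 to 37686975 counts) puts NEAT1 at 8565 counts or more and MALAT1 at 19466 or more in every library, so replicate spread limits precision. The correlation of group means used log2 CPM with a prior count of 2.

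Members and lists were chosen with earlier results of these data known. Genes named beside the members were, per comparison of a high dose, up to 3 rises and 3 falls of the paraspeckle list, up to 2 each way of the other lists, and the 5 genes of highest correlation with NEAT1 and with MALAT1 (mean log2 CPM of at least 3). Hot-water extracts and a wortmannin control, named in the labels, were not analysed here. Alternatives were RLE size factors, DESeq2 1.42.0, no filter, a replicate block, the length slope as a covariate, omission of tilted libraries, the compared groups alone and omission of each library in turn; for the last the dispersion trend was kept from all libraries. Some members of the lists are counted but not reported here by name, and 1 is left out of the plot of paraspeckle genes.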

Additional observations from a re-analysis of the deposited data

Results flagged for a closer look

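In 4 results the change from low to high dose differed between extracts of the same library-name set, by edgeR's quasi-likelihood test of the difference itself, adjusted over all genes. NONO fell further with Polygalae Radix than with Aucklandiae Radix (difference of log2 changes -1.02, adjusted p = 3.41e-07), with high-dose libraries at 312 and 258 CPM against 540 and 489 CPM. NONO also fell further with Guibi-tang than with Saengmaek-san (-1.42, adjusted p = 9.43e-13). For the same extracts PSPC1 differed by -0.50 (adjusted p = 0.00142) and SFPQ by -0.39 (adjusted p = 0.0395), the last a call that did not survive 9 of 12 refits without a library. These tests were chosen after seeing the data, and the doses compared differ between Polygalae Radix and Aucklandiae Radix.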

How the results depend on the processing

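The log2 fold changes of NEAT1 at the high doses moved by less than the spread between libraries under every alternative run, apart from a range of 1.50 to 1.68 for Polygalae Radix against vehicle over single omitted libraries. That spread comes from the same 2 or 3 libraries of each compared group. Omitting 1 of them can seldom move a value by more, so single omissions are a weak check by this measure. MALAT1 values moved when the transcript-length slope was taken into account. The slope term is estimated within groups, and high-dose Aucklandiae Radix, Guibi-tang and Polygalae Radix hold no tilted library. Among the 50 untilted libraries MALAT1 and the slope gave r = -0.033. With that slope as a covariate its values against vehicle were 0.99 for Aucklandiae Radix, 1.82 for Guibi-tang, 0.58 for Menthae Herba, 2.12 for Polygalae Radix, 0.79 for Saengmaek-san, 0.37 for Saposhnikoviae Radix and 0.64 for Soyo-san, and against the low dose 1.07 for Guibi-tang, -0.14 for Menthae Herba and 1.66 for Polygalae Radix. Without the length-tilted libraries they were 0.99 (Menthae Herba) and 0.50 (Saposhnikoviae Radix) against vehicle, and 0.69 (Guibi-tang) and 0.21 (Menthae Herba) against the low dose. Over single omitted libraries MALAT1 ran from 0.99 to 2.02 for Menthae Herba and from 0.50 to 1.99 for Saposhnikoviae Radix against vehicle. Against the low dose it ran from 0.45 to 0.70 (Aucklandiae Radix), -0.01 to 0.68 (Guibi-tang), 0.20 to 1.23 (Menthae Herba), -1.32 to 0.18 (Saposhnikoviae Radix) and -0.18 to 0.34 (Soyo-san). Counts of called paraspeckle protein genes, NONO, SFPQ and PSPC1 included, stayed within 1.5 times for Guibi-tang and Polygalae Radix under every alternative run and moved elsewhere. Without tilted libraries they were 19 (Aucklandiae Radix), 14 (Menthae Herba), 12 (Saposhnikoviae Radix) and 9 (Soyo-san) against vehicle, and 20, 10 and 1 for Aucklandiae Radix, Menthae Herba and Soyo-san against the low dose. With the slope as a covariate they were 15 (Menthae Herba), 23 (Saengmaek-san), 12 (Saposhnikoviae Radix) and 7 (Soyo-san) against vehicle, and 20, 13, 2 and 1 for Aucklandiae Radix, Saengmaek-san, Saposhnikoviae Radix and Soyo-san against the low dose. Fitted on the compared groups alone they were 19 (Aucklandiae Radix), 4 (Menthae Herba), 0 (Saposhnikoviae Radix) and 13 (Soyo-san) against vehicle, and 21, 0 and 1 for Aucklandiae Radix, Menthae Herba and Saengmaek-san against the low dose. With no filter on low counts they were 8 (Saengmaek-san) and 1 (Soyo-san) against vehicle and 1 each (Menthae Herba and Saengmaek-san) against the low dose, and DESeq2 gave 10 for Menthae Herba against the low dose. Over single omitted libraries they ran from 9 to 16 (Saengmaek-san), 2 to 11 (Saposhnikoviae Radix) and 1 to 2 (Soyo-san) against vehicle, and from 8 to 9 (Aucklandiae Radix), 3 to 8 (Menthae Herba), 1 to 2 (Saengmaek-san) and 0 to 10 (Saposhnikoviae Radix) against the low dose. RPP21 with Saposhnikoviae Radix changed sign without tilted libraries (-0.0093) and ran from -0.0043 (without high replicate 2) to 1.17 over single omitted libraries. Of 20 called results of NONO, SFPQ and PSPC1 6 lost their call under some alternative, and of 204 of the named list genes 72 did; the cause was not tested.

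The replicate numbers are not known to pair the libraries: in 0 of 16 comparisons with 3 pairs did every same-numbered pair deviate together (r over 0.1), and in 0 of them did each library correlate best with its own number. Comparisons with 2 pairs are too few for this check; there Polygalae Radix high against low dose gave r = 0.182 in both pairs. A replicate block moved no count of paraspeckle genes past 1.5 times and ended no call of NONO, SFPQ or PSPC1. It ended the calls of POP5 with Menthae Herba and FIRRE with Polygalae Radix against vehicle, and by set that of RPP38 with Menthae Herba against the low dose. For Soyo-san high against low dose the number of all genes called was 100 without a block, 87 with the own numbers and 92 with the crossed numbers, a pairing added after seeing the data. Refits without a library kept the dispersion trend of all libraries, and a group left with 1 library is assumed to vary like the others.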

Other observations

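Okbyeongpung-san, with 1 library per dose, enters no comparison. NEAT1 was at 773, 578 and 673 CPM at its high, medium and low dose, and MALAT1 at 6314, 1336 and 1269 CPM. NONO was at 613, 747 and 723 CPM, SFPQ at 228, 337 and 346 CPM and PSPC1 at 26.8, 29.5 and 29.2 CPM. The high-dose library is length-tilted, with a slope of -0.396. Between NEAT1 and MALAT1 on chromosome 11 the pseudogene FAUP4 held 13 to 77 counts per library, with a median of 23.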
